A study of Rattus norvegicus with 10 samples.

Results

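The genes described here make cholesterol in the cell or control how much of it is made. They are 29 rat genes, among them enzymes of the mevalonate and sterol pathway, the sensors and transcription factors of the sterol regulatory element binding protein (SREBP) system, cholesterol carriers and fatty acid enzymes that SREBP also drives. A gene entered through the transcript accession that each array probe carries, with every probe of every listed gene kept. Of the 29 genes, 28 had a probe and 27 had a probe bright enough to test, out of 15154 genes named on the array. They were covered by 31 of 30367 probes. Srebf1 had no matched probe. The single probe for Scd, a fatty acid desaturase, was well above background in 0 of 10 siFoxE1 channels and 1 of 10 reference channels, so it was not tested.

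Cholesterol is built from acetyl-CoA. Enzymes of the mevalonate pathway make the isoprenoid farnesyl diphosphate, which feeds cholesterol as well as protein prenylation, dolichol and ubiquinone. A further series of enzymes joins farnesyl diphosphate into squalene, closes the rings to lanosterol and trims lanosterol to cholesterol. When membranes of the endoplasmic reticulum are poor in cholesterol, the escort protein Scap carries SREBP2, the product of Srebf2, to the Golgi, where it is cut and released to the nucleus to switch these genes on. When cholesterol is plentiful, the Insig proteins hold Scap back. Insig1 is itself a target of SREBP, so its mRNA is often read beside those of the enzymes.

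The samples were PCCl3, an established rat cell line of thyroid follicular origin, in 3 conditions. In siFoxE1 PCCl3 the forkhead transcription factor FoxE1 was silenced by transfecting 25 nM of a pool of siRNAs with a lipid reagent. The siScramble PCCl3 received 25 nM of a non-targeting siRNA pool with the same reagent, and the wt PCCl3 were left untreated. RNA was taken 48 hours after transfection, and all cells were grown in serum with thyrotropin, insulin and other hormones. Each condition had 4 cultures from separate silencing experiments, numbered 1 to 4. RNA was hybridised to 10 arrays of 2 colours: for siFoxE1 against wt and for siFoxE1 against siScramble, 4 arrays of single cultures and 1 array of the pooled cultures with the dyes swapped. The pools held the same cultures and are no further replicates. The fitted value of a gene is the average of the mean over the 4 cultures and the value of the pool. In this way dye effects cancel. The fit matches the single dye-swapped array exactly, so its SE and p-value take their spread from the 4 cultures alone. siScramble and wt RNA never met on one array. Their difference was taken, culture number by culture number, from the 2 ratios that share a siFoxE1 culture, so the 3 comparisons are not independent. FoxE1 was silenced with a single siRNA pool in a single cell line.

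The silencing was read from the target itself. The log2 ratio of Foxe1 against wt was −0.52, −0.55, −0.34 and −0.62 in cultures 1 to 4 and −1.21 in the pool. The fit gave −0.86 ± 0.0773 (SE, n = 4 cultures and their pool) with an adjusted p of 0.0333 from limma. Against siScramble it was −0.80 ± 0.0859 with an adjusted p of 0.0228, and siScramble against wt gave 0.05 with an adjusted p of 0.83. Foxe1 was lower in siFoxE1 on all 10 arrays. In both comparisons the pool, with the dyes swapped, was further below 0 than any single culture. Each fitted value therefore lies below the mean of the 4 cultures, which was −0.51 against wt and −0.56 against siScramble. The study also reported loss of FoxE1 protein by western blot of these cultures and lower Foxe1 mRNA by quantitative PCR. All 10 thyroid follicular markers were well above background in all 8 single-culture reference channels, as were 1 of 4 epithelial markers (Epcam and Krt18 in none), 3 of 5 fibroblast markers (Dcn in none), 2 of 4 leukocyte markers (Ptprc in none), 1 of 3 endothelial markers (Pecam1 in none) and 0 of 2 C cell markers. Between 56.8% and 68.2% of spots per channel were well above background and no spot was saturated. In RNA of whole cultures, fewer cells carrying a transcript cannot be told apart from less transcript per cell.

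The promoters of the sterol genes are shown before the values because many of them share a sequence feature. For 24 of the 29 genes, 25 promoters of 300 bases (250 before and 50 after the transcription start) were read from RefSeq for build GRCr8, and 3 short motifs were searched on both strands. CCAAT, the box bound by NF-Y, a factor known to work beside SREBP, occurred in 19 of the 25 promoters (76%), against 37.5% of all 33469 promoters of that length. AAACA, the core letters that forkhead proteins bind, occurred in 5 of 25 (20%), against 51.9% of all promoters. The sterol regulatory element in the form TCACNCCAC occurred in 0 of 25, against 1.12% of all. No match of one motif overlapped a match of another in these 25 promoters. A match says only that the letters are present. The shares of all promoters include genes not tested on these arrays, and base composition was not matched. Whether the differences in share are particular to sterol genes was not tested.
Around the CCAAT match nearest to the start, 30 bases are printed for the members with the largest differences in siFoxE1 against wt that have one, on the strand of the gene. Capitals mark the box, which reads ATTGG where it lies on the other strand.
Mvd, chr19:67414959-67414988, minus strand: ccggtcggcgggCCAATcgtacggcagcgc
Msmo1, chr16:29747033-29747062, plus strand: gagtggggcggaCCAATtacgacaggagca
Lss, chr20:12118295-12118324, minus strand: ggtgatgctctgATTGGccgcgctcgcatc
Hsd17b7, chr13:84722762-84722791, minus strand: ggttgagccttgATTGGtcggggtgcgcgt
Hmgcs1, chr2:53382159-53382188, plus strand: ctgagtccggtgATTGGctgagatagctgc
Fdps, chr2:176804884-176804913, minus strand: gaggtcattcagCCAATcagcgaactcggc
Insig1, chr4:8057945-8057974, minus strand: cgccctcctcccATTGGctcccgcggcctc
Cyp51, the other member of that group, had no match in its promoter. None of these 8 promoters held AAACA. Of the 5 genes that did (Mvk, Ggps1, Tm7sf2, Insig2 and Srebf2), the windows of Mvk and Srebf2 are printed, because Mvk had the smallest SD of the 4 culture ratios against wt of any tested member (0.0370) and Srebf2 encodes the factor itself. Capitals here mark AAACA, or TGTTT where it lies on the other strand.
Mvk, chr12:47819567-47819596, minus strand: gcaatctccgttTGTTTgaaattcccattg
Srebf2, chr7:115543298-115543327, plus strand: ggggcgcagctcAAACAtggcggcggttgg

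**Figure D1:**
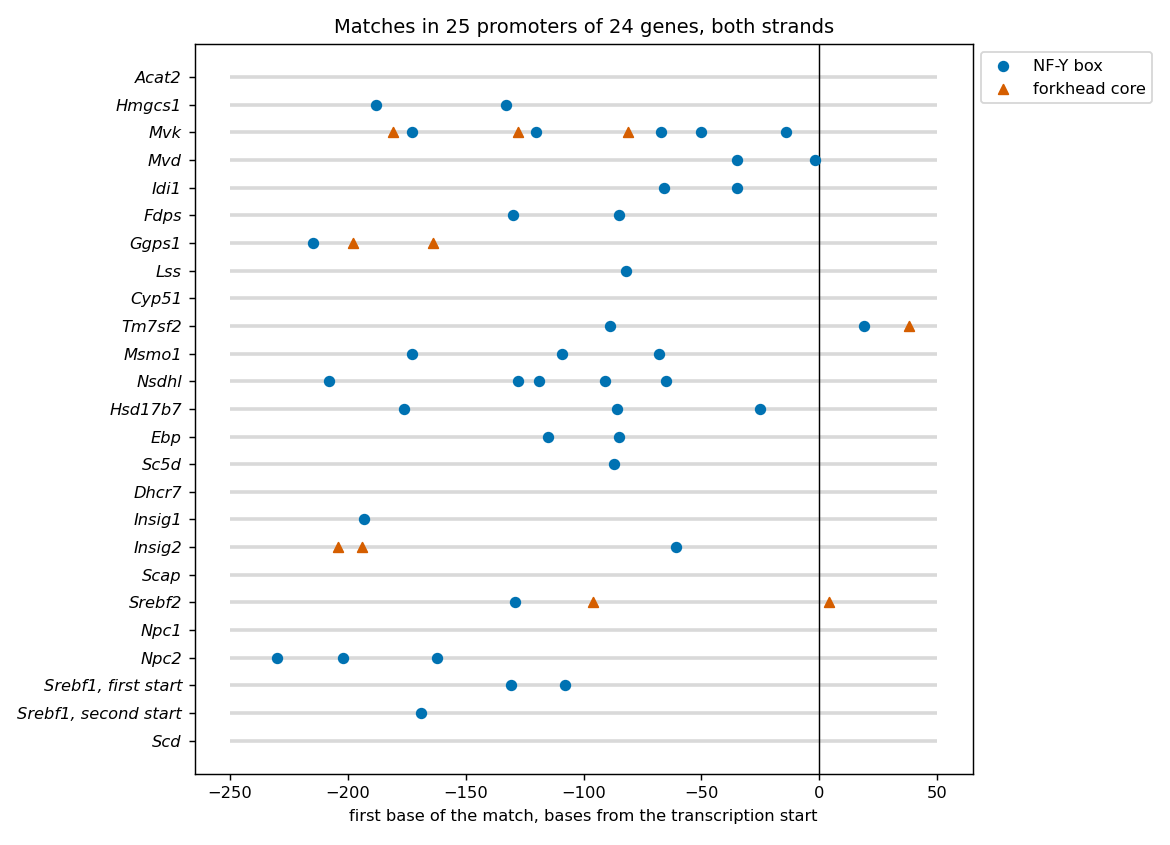
Each row is one of 25 promoters of 24 genes and each symbol a match on either strand, placed by its first base in bases from the transcription start (circles, the NF-Y box; triangles, the forkhead core). The NF-Y box appears in 19 rows, and the forkhead core in 5.

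The first comparison asked how the sterol genes stood in FoxE1-silenced cells against untreated cells. No member passed the test in siFoxE1 against wt: 0 of 27 were called at an adjusted p under 0.05 by limma, beside 0.0304% of the 9880 named genes tested, and the smallest adjusted p among members was 0.234. At an unadjusted p under 0.05, 11 members were lower (10.2% of all genes) and 1 was higher (10.6% of all genes). The fitted log2 ratio was below 0 for 20 of 27 members (50.6% of all genes), with a median of −0.21 against −0.0023 over all genes. By role, 7 of 8 mevalonate and isoprenoid enzymes, 9 of 11 enzymes from squalene to cholesterol, 1 of 4 sensors and transcription factors, 2 of 3 carriers and Fasn were below 0. On all 5 arrays 9 members (33.3%) were below 0, against 14.1% of genes, and 1 member (3.7%) was above 0, against 11.1%.

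The culture numbers pair the samples, since a siFoxE1 culture served in both comparisons. When all 10 arrays entered 1 limma fit with the culture number as a block, 8 members were called lower in siFoxE1 against wt and none higher, against 4.8% and 5.69% of all genes. The 8 were Cyp51 (adjusted p = 0.00795), Hsd17b7, Mvd, Msmo1, Lss, Fdps, Hmgcs1 and Fasn (adjusted p = 0.0444). That fit shares 1 estimate of the spread and 1 dye effect across both comparisons, whereas the separate fit of 5 arrays leaves 3 residual degrees of freedom. The pooled arrays have no culture number of their own and entered the fit of all 10 arrays as a further replicate. They hold RNA of the same cultures, so the p-values of that fit do not rest on independent cultures alone and may be too small. The log2 ratios of the 8 members in that fit lay between −0.90 and −0.29. Without the block, the fit of all 10 arrays called 8 members lower and 1 higher, against 5.44% and 6.17% of all genes. Mvk then stood in place of Hmgcs1 among those called lower, and Npc2 was called higher.

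**Figure D2:**
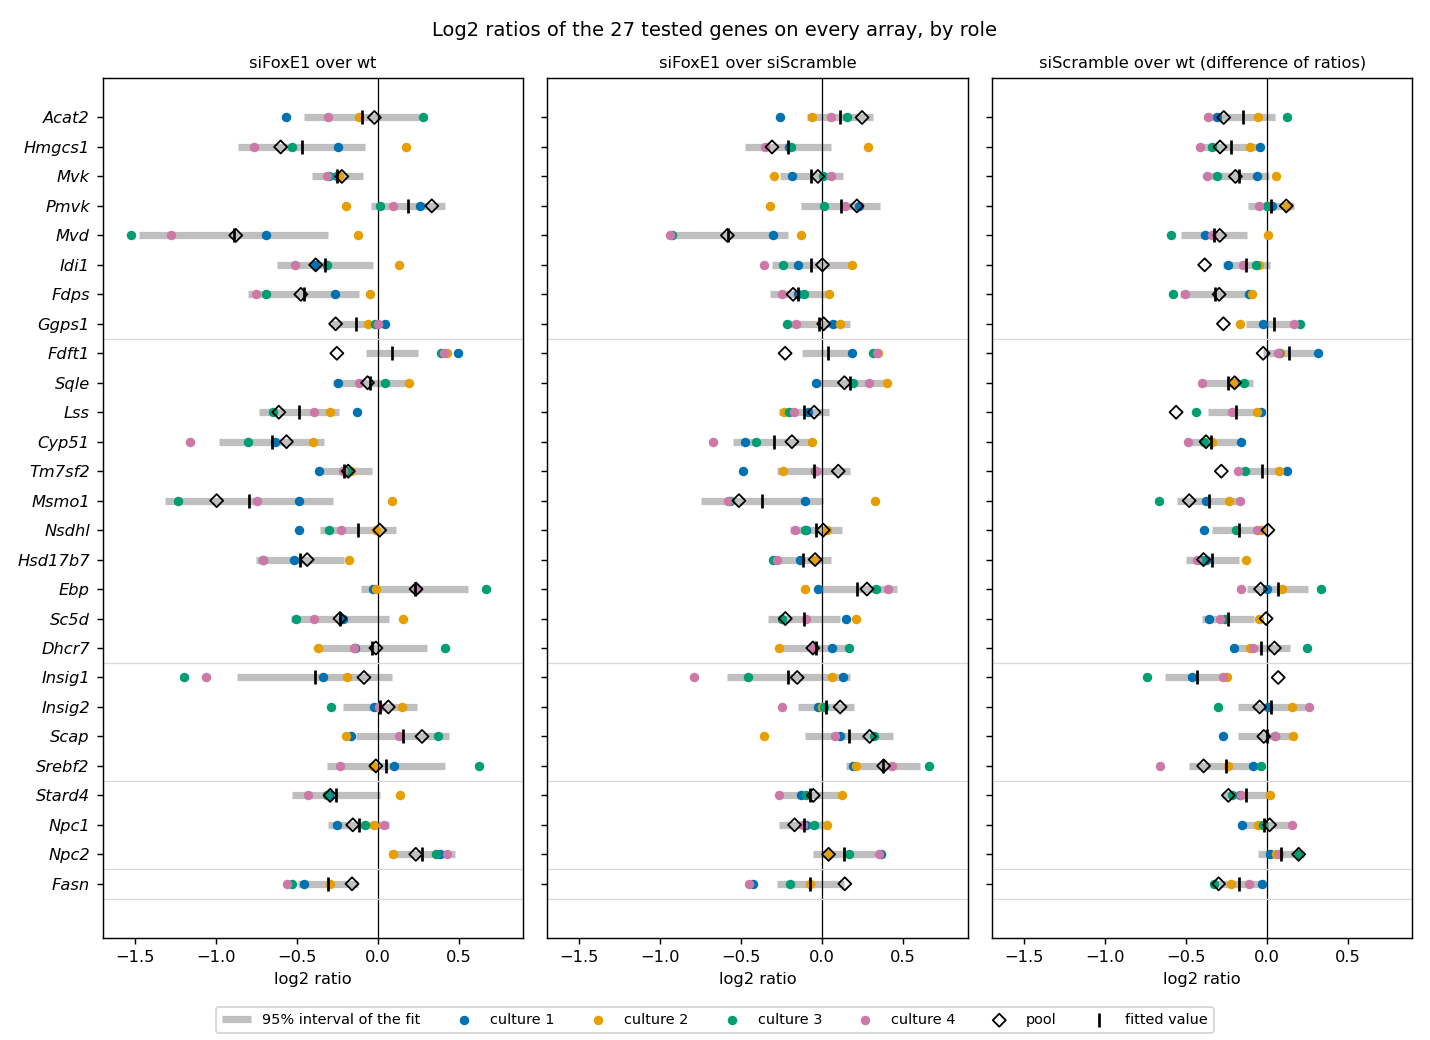
Log2 ratio (x axis) of each of the 27 tested genes (rows, by role) in the 3 comparisons; filled points are single cultures, open diamonds the pools, black ticks the fitted value and grey bars its 95% interval, with the third panel fitted on the 4 numbers without the pool. In siFoxE1 over wt most points lie left of 0, furthest for Mvd and Msmo1, while in siFoxE1 over siScramble they gather nearer to 0.

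Among the mevalonate enzymes, Mvd, the decarboxylase that yields the building block of all isoprenoids, had the largest difference of any member. Its log2 ratio against wt was −0.69, −0.12, −1.52 and −1.28 in cultures 1 to 4 and −0.88 in the pool. It was thus below 0 everywhere, least in culture 2 and most in cultures 3 and 4. The fit gave −0.89 ± 0.244 (SE), 1.85-fold lower, with an adjusted p of 0.234. Hmgcs1, the synthase that makes HMG-CoA, had ratios of −0.25, 0.18, −0.53 and −0.77 and −0.60 in the pool, and a fitted value of −0.47 ± 0.165 (adjusted p = 0.251). Culture 2 was the only one above 0. Fdps, which makes farnesyl diphosphate, had ratios of −0.26, −0.05, −0.69 and −0.75 and −0.47 in the pool, and a fitted value of −0.46 ± 0.143 (adjusted p = 0.239). The second Fdps probe was fitted at −0.45 ± 0.153. Mvk, mevalonate kinase, differed less but evenly, with −0.25, −0.24, −0.30 and −0.31 and −0.22 in the pool and a fitted −0.25 ± 0.0653 (adjusted p = 0.234). Of the other enzymes of this stretch, Idi1 (isopentenyl diphosphate isomerase), Ggps1 (which makes geranylgeranyl diphosphate) and Acat2 (a thiolase that joins acetyl-CoA) lay between −0.33 and −0.10, and Pmvk, the kinase after Mvk, at 0.19.

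From squalene to cholesterol, Msmo1, a methylsterol oxidase that acts after Cyp51, stood lowest. Its log2 ratios against wt were −0.48, 0.09, −1.23 and −0.74 and −0.99 in the pool, with a fitted −0.79 ± 0.217 (adjusted p = 0.234). Again culture 2 alone was above 0. Cyp51, the lanosterol demethylase, had −0.64, −0.40, −0.80 and −1.16 and −0.56 in the pool, so that every array was below 0, with a fitted −0.66 ± 0.136 (adjusted p = 0.234), or 1.58-fold lower. Lss, which closes the sterol rings, had −0.12, −0.30, −0.64 and −0.39 and −0.61 in the pool, with a fitted −0.49 ± 0.103. Hsd17b7, a keto-reductase of the same demethylation steps, had −0.51, −0.18, −0.71 and −0.71 and −0.44 in the pool, with a fitted −0.48 ± 0.114. Both had an adjusted p of 0.234 and lay below 0 on all 5 arrays. The remaining enzymes were nearer to 0: Sc5d, Tm7sf2, Nsdhl, Sqle and Dhcr7, the reductase of the last step, were fitted between −0.24 and −0.04, and Fdft1 and Ebp at 0.09 and 0.23.

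Fdft1, the squalene synthase, catalyses the step at which sterols part from other isoprenoids. Its log2 ratios against wt were 0.50, 0.43, 0.39 and 0.41 in cultures 1 to 4, all above 0, but −0.25 in the pool, where the dyes were exchanged. Against siScramble the same probe gave 0.18, 0.35, 0.32 and 0.34, and −0.23 in the pool. The sign differed between the dye orientations in both comparisons, and with a dye term the fitted values were 0.09 and 0.03. Without the pooled array the value against wt was 0.43 with an adjusted p of 0.0394, and against siScramble 0.30 with an adjusted p of 0.0491, beside 0.911% and 2.19% of genes called higher in these limma fits, in which a dye effect and the silencing cannot be told apart.

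The sensors and transcription factors had values of both signs. Insig1, the SREBP target that retains Scap, had log2 ratios of −0.34, −0.19, −1.20 and −1.06 against wt and −0.08 in the pool, with a fitted −0.39 ± 0.201 (adjusted p = 0.352). All 5 arrays were below 0, and the pool was near 0 although cultures 3 and 4 were far below it. Insig2, a related retention protein, had −0.02, 0.15, −0.29 and 0.0099 and 0.07 in the pool (fitted 0.01, adjusted p = 0.947). Scap, the escort, had −0.17, −0.20, 0.37 and 0.13 and 0.27 in the pool (fitted 0.15, adjusted p = 0.522). Srebf2, which encodes SREBP2, had 0.10, −0.03, 0.63 and −0.23 and −0.01 in the pool (fitted 0.05, adjusted p = 0.880). For Insig2, Scap and Srebf2 the arrays lay on both sides of 0.

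Of the carriers, Npc2, the soluble lysosomal protein that hands cholesterol to Npc1, was the only member above 0 on all 5 arrays, with 0.39, 0.09, 0.36 and 0.43 and 0.24 in the pool and a fitted 0.28 ± 0.0855 (adjusted p = 0.239). Npc1, the membrane exporter of the lysosome, was fitted at −0.12 and −0.06 by its 2 probes, and Stard4, a cytosolic sterol carrier, at −0.26 and −0.22 by its 2 probes. Fasn, fatty acid synthase, was below 0 on all 5 arrays, with −0.45, −0.30, −0.53 and −0.56 and −0.16 in the pool and a fitted −0.31 ± 0.0776 (adjusted p = 0.234). Mvk, Fasn and Npc2 were named for their array patterns after their values were seen, as was Fdft1.

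The second comparison set the FoxE1-silenced cells against cells transfected with the non-targeting pool. In siFoxE1 against siScramble 0 of 27 members were called, beside 0.144% of the 9719 named genes tested, and the smallest adjusted p was 0.224. At an unadjusted p under 0.05, 2 members were lower (7.5% of all genes) and 1 was higher (8.65%). The median over members was −0.07, and 18 of 27 were below 0 (49.7% of all genes). On all 5 arrays 4 members (14.8%) were below 0: Mvd, Cyp51, Lss and Hsd17b7. Over all genes this share was 11%. Above 0 on all 5 arrays were 2 members (7.41%), Npc2 and Srebf2, against 10% of genes. The fit over all 10 arrays with the block called 0 members here, beside 0.463% of genes.

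Mvd again had the largest difference, with log2 ratios against siScramble of −0.31, −0.13, −0.93 and −0.94 and −0.59 in the pool, and a fitted −0.58 ± 0.159 (adjusted p = 0.234). All 5 arrays were below 0, with culture 2 nearest to it. Msmo1 had −0.11, 0.32, −0.57 and −0.58 and −0.51 in the pool (fitted −0.37, adjusted p = 0.387), and Cyp51 −0.48, −0.06, −0.41 and −0.67 and −0.19 in the pool (fitted −0.30, adjusted p = 0.309). Cyp51 was below 0 on every array, whereas Msmo1 was above 0 in culture 2. Hmgcs1 had −0.21, 0.28, −0.19 and −0.35 and −0.31 in the pool, and Fdps −0.15, 0.04, −0.11 and −0.25 and −0.18 in the pool. In both, culture 2 alone was above 0. Lss had −0.09, −0.24, −0.21 and −0.17 and −0.05 in the pool, and Hsd17b7 −0.14, −0.05, −0.30 and −0.28 and −0.04 in the pool. These 4 were fitted between −0.21 and −0.11, with adjusted p between 0.451 and 0.565.

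Srebf2 had the largest positive value of the members in this comparison. Its log2 ratio against siScramble was 0.19, 0.21, 0.66 and 0.43 and 0.38 in the pool, above 0 on all 5 arrays. The fitted 0.38 ± 0.0995, or 1.30-fold higher, had the smallest adjusted p of the members, 0.224. Insig1 had 0.13, 0.06, −0.46 and −0.79 and −0.15 in the pool (fitted −0.21, adjusted p = 0.646), with cultures 1 and 2 on one side of 0 and cultures 3 and 4 on the other. Insig2 had −0.02, −0.0018, 0.01 and −0.25 and 0.11 in the pool, and Scap 0.11, −0.36, 0.32 and 0.08 and 0.29 in the pool. Neither gene kept one sign across arrays.

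The question of transfection itself was addressed by the indirect comparison of siScramble against wt. Here 0 of 27 members were called, beside 0.125% of the 9578 named genes tested, and the smallest adjusted p was 0.119. At an unadjusted p under 0.05, 13 members were lower (7.29% of all genes) and 0 higher (8.5%). The median over members was −0.17, with 21 of 27 below 0 (50.7% of all genes). In all 4 culture numbers 13 members (48.1%) were below 0, against 12.3% of genes. With the difference of the 2 pools as a further value, 3 members were called lower, Cyp51 (adjusted p = 0.0310), Hsd17b7 and Msmo1, beside 0.125% of genes called lower in that fit. The pools held the same 4 cultures, so that value is no further replicate, although the fit counts it as such. For culture number 3 and for the pools, the 2 ratios came from different slides. The part of the slide in these differences was not tested.

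Insig1 had the largest indirect difference, −0.46, −0.25, −0.74 and −0.27 in culture numbers 1 to 4, but 0.07 between the pools, with a fitted −0.43 ± 0.0881 over the 4 numbers (adjusted p = 0.119). Msmo1 had −0.38, −0.24, −0.66 and −0.16 (fitted −0.36, adjusted p = 0.154), and Cyp51 −0.16, −0.34, −0.39 and −0.48 (fitted −0.34, adjusted p = 0.121). Hsd17b7 had −0.38, −0.13, −0.40 and −0.43 (fitted −0.34, adjusted p = 0.128). In these 4 genes every number was below 0. Mvd had −0.38, 0.0072, −0.59 and −0.34 (fitted −0.33), and Fdps −0.11, −0.09, −0.58 and −0.51 (fitted −0.32). Hmgcs1 had −0.04, −0.11, −0.34 and −0.41 (fitted −0.22), and Lss −0.04, −0.06, −0.44 and −0.22 (fitted −0.19). Sqle, squalene epoxidase, was fitted at −0.05 in siFoxE1 against wt, at 0.17 against siScramble and here at −0.24 (adjusted p = 0.204). Srebf2 had −0.09, −0.24, −0.03 and −0.66 and −0.39 between the pools, with a fitted −0.25 ± 0.0997 (adjusted p = 0.278). Insig2 had 0.0044, 0.16, −0.30 and 0.26, and Scap −0.27, 0.16, 0.05 and 0.05, on both sides of 0.

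The 3 values of a gene may be set side by side. Mvd stood at −0.89 against wt, at −0.58 against siScramble and at −0.33 between siScramble and wt. Cyp51 stood at −0.66, −0.30 and −0.34, and Hsd17b7 at −0.48, −0.12 and −0.34. For Srebf2 the values were 0.05, 0.38 and −0.25, of opposite sign in the latter pair. The comparisons share RNA, so whether siFoxE1 differed more from wt than from siScramble is tested only by the third of them, in which 0 members were called.

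The members' levels varied between cultures of one condition. Levels here are log2 intensities, set only against the same probe. The span over the 4 wt cultures had a median of 0.57 over the 27 members, against 0.39 over all genes, and for the siFoxE1 cultures on the same arrays it was 0.77 against 0.43. Dhcr7 was the most variable, at 6.98, 9.33, 7.68 and 7.36 in wt cultures 1 to 4. Acat2 was at 10.63, 12.24, 10.95 and 10.66, and Srebf2 at 9.14, 10.72, 9.32 and 9.09. Culture 2 was thus the highest in all 3. In wt 20 of 27 members had their highest level in culture 2 (37.1% of all genes), in siScramble 19 of 27 (36.6%), and in siFoxE1 18 and 17 of 27 on its 2 arrays (27.9% and 26.5%). Mvd was an exception, at 12.86, 11.75, 12.90 and 12.85 in wt, with culture 2 the lowest. The same siFoxE1 culture read on 2 arrays differed by a median of 0.0488 in level over 108 pairs of member values, with a largest difference of 0.32.

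The levels of the siFoxE1 and wt cultures did not overlap for 2 of 27 members (6% of all genes), Mvk and Npc2. Mvk was at 8.84, 8.86, 8.78 and 8.65 in wt and at 8.59, 8.62, 8.48 and 8.34 in siFoxE1, all lower than wt. Npc2 was at 12.15, 12.21, 12.17 and 11.95 in wt and at 12.54, 12.31, 12.53 and 12.37 in siFoxE1, all higher. Against siScramble only Npc2 of the 27 did not overlap, again near the share of all genes, 3.48%. For Mvd, the siFoxE1 levels of 12.17, 11.63, 11.38 and 11.57 overlapped those of wt, whose culture 2 stood at 11.75.

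**Figure D3:**
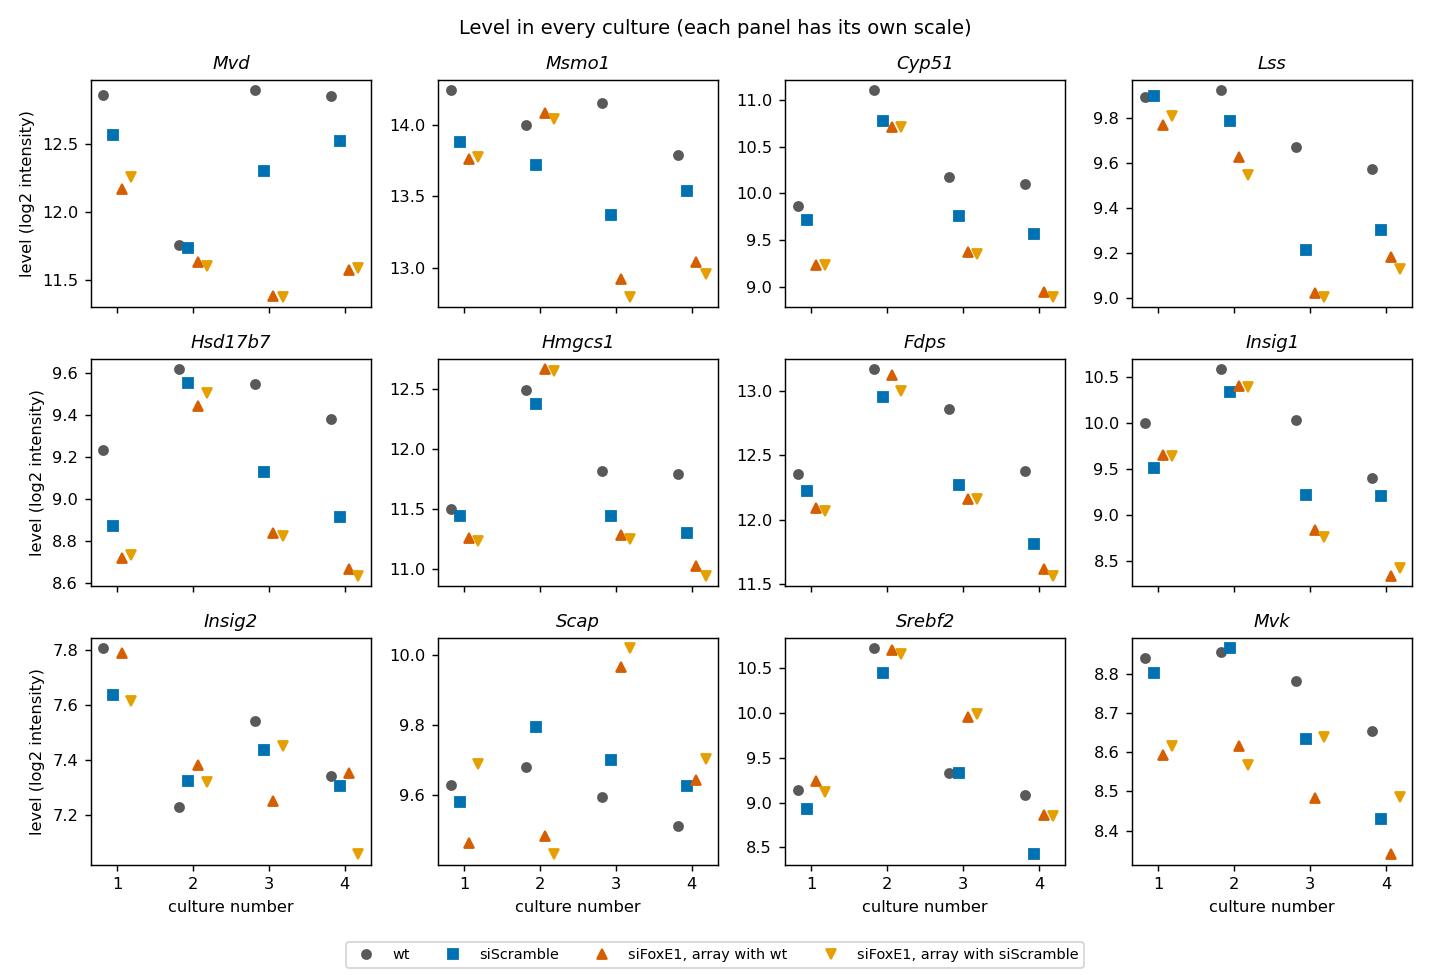
Level (log2 intensity, y axis, own scale per panel) of 12 genes in each culture number (x axis, which carries no order) for wt, siScramble and siFoxE1, the last on both of its arrays. Over all members the 2 siFoxE1 readings of a culture differ by at most 0.32, and culture 2 is the highest for Cyp51, Hmgcs1, Fdps, Insig1 and Srebf2 in each condition.

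Other gene groups also varied between arrays. The median over the 27 members in siFoxE1 against wt was −0.25, −0.05, −0.30 and −0.31 in cultures 1 to 4 and −0.18 in the pool, with 22, 18, 18, 19 and 21 members below 0. Over 11 chaperones of the endoplasmic reticulum, the organelle in which the sterol sensors and many of these enzymes sit, it was −0.36, −0.04, −2.90 and −1.63 and −0.82 in the pool. None of the 11 was called (Hyou1 at −1.43, adjusted p = 0.271), and all 11 were below 0. Both groups were nearest to 0 in culture 2. The study's own analysis of these arrays listed Hyou1, Hspa5 and Creld2, among other chaperones, as lowered in both comparisons. It required an adjusted p under 0.005 in each, and still called more probes than the separate fits here did at 0.05. Those fits called 9 probes against wt and 22 against siScramble. The reason for this difference was not tested. The study's quantitative PCR found Hspa5 and Creld2 lower than in siScramble. Over 13 interferon-related genes the medians were 0.49, 0.33, 0.31 and 2.10, and 0.95 in the pool. Ifi27 stood at 1.69 against wt, and it was the 1 gene of this list called higher in siScramble against wt (1.24, adjusted p = 0.00617). Over 13 cell cycle genes they were −0.27, 0.13, 0.89 and 0.11, and 0.14 in the pool. Cdh1, which encodes the epithelial adhesion protein E-cadherin, was at 1.33 against wt (adjusted p = 0.117) and was higher against siScramble by 1.09 (adjusted p = 0.0431), and the macrophage marker Cd68 was called lower against siScramble at −0.66 (adjusted p = 0.0148), although it lay between −0.0054 and 0.10 in the 4 cultures and at −1.34 in the pool. The part of these genes in the values of the sterol genes was not tested. Over all genes the log2 ratios against wt had an SD of 0.26, 0.19, 0.48 and 0.33 in cultures 1 to 4, smallest in culture 2. For siFoxE1 against siScramble, culture 3 and the pool were on a slide of their own, and with the slide as a term 0 members were called and the median was −0.05.

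**Figure D4:**
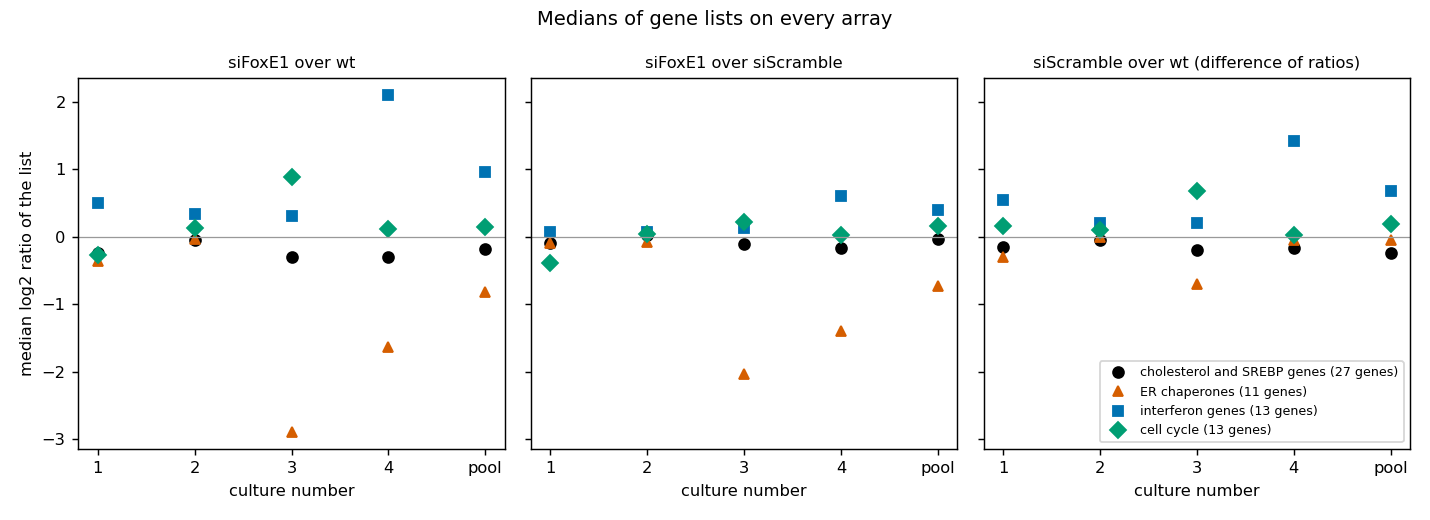
Median log2 ratio (y axis) of 4 gene lists on each array (x axis, culture numbers without order, then the pool) in the 3 comparisons. The ER chaperone median reaches −2.90 in culture 3 against wt, the interferon median 2.10 in culture 4, and the sterol gene median stays between −0.31 and 0.03 in every panel.

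Genes next to this pathway were also counted. Of 11 tested genes of fatty acid and acetyl-CoA supply, 0 were called in any comparison, and 8 were below 0 against wt, 6 against siScramble and 10 in the indirect comparison, with medians of −0.12, −0.05 and −0.14. The fatty acid desaturases Fads2 and Fads1 stood at −0.58 and −0.57 against wt, Gpam, which starts glycerolipid synthesis, at −0.60, and Acly, which makes cytosolic acetyl-CoA, at −0.45. All 4 had an adjusted p between 0.212 and 0.234. Fads2 was below 0 in each culture, at −0.80, −0.56, −1.08 and −0.82, and −0.34 in the pool. Among 11 other sterol genes the medians were −0.04, −0.07 and −0.14, with 0 called. Among 5 genes of sterol efflux the medians were 0.0023, 0.04 and 0.05, with 0 called, and the exporter Abcg1 stood at 0.49 (adjusted p = 0.263). Among 10 genes that use isoprenoids they were −0.05, −0.05 and −0.04, with 0 called. Dhdds, which makes dolichol precursors, stood at −0.28, Rabggtb, a subunit of the enzyme that prenylates Rab proteins, at −0.33, and Pdss2, of ubiquinone synthesis, at 0.45.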

How the data were processed

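Total RNA of PCCl3 cells was labelled with Cy3 and Cy5 and hybridised to 10 rat Agilent arrays, which the authors quantified with Feature Extraction 10.7.3.1. The deposited intensity values of each array (median spot and local background brightness) and 0 or 1 quality marks were used. The authors' log2 ratios (limma 3.2.3 per the submitters' processing notes, loess and quantile normalized) served as an alternative. In limma 3.58.1 (R 4.3.3) signals were corrected by normexp (offset 50), then loess and quantile normalized, leaving out control and outlier spots. Probes well above background on at least 3 of 5 arrays in either RNA were tested, and the brightest tested probe stood for a gene. Each direct comparison was fitted on 5 arrays with a dye term. The indirect one used 4 differences of ratios with equal culture number. A call is an adjusted p (Benjamini-Hochberg over all probes tested) under 0.05. The scripts were tested on simulated data. Same-numbered ratios deviated together over genes (r = 0.616, 0.757, 0.764 and 0.406; different numbers −0.65 to 0.506, the highest being culture 3 against wt with culture 4 against siScramble), and the study's design draws 1 siFoxE1 sample per number. The study describes 4 independent silencing experiments, and precision is limited by how few arrays there were.

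Values on every array are given for the 8 members with the largest absolute log2 ratio in siFoxE1 against wt, the regulators and any called member. Up to 4 genes of another list are named by the smallest p. Members and lists were chosen with earlier results of these data known. Promoters came from RefSeq (GRCr8), and no array coordinates were used.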

Additional observations from a re-analysis of the deposited data

Results flagged for a closer look

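In 81 groups of 4 values (27 members in 3 comparisons), 2 held a value far from the other 3 by Dixon's test. Chance marks about 1 in 20 such groups. Fdft1, squalene synthase, was at 0.31 in culture number 1 of siScramble against wt, while the other numbers lay between 0.07 and 0.08. Insig2, a retention protein of the sterol sensor, was at −0.25 in culture 4 of siFoxE1 against siScramble, while the other cultures lay between −0.02 and 0.01.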

How the results depend on the processing

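The median log2 ratio over the 27 members stayed below 0 under every alternative run, from −0.24 to −0.17 in siFoxE1 against wt (16 alternatives), −0.09 to −0.05 against siScramble (17) and −0.18 to −0.12 in siScramble against wt (14). The count of members called by limma was 0 under 12, 15 and 13 of these. In siFoxE1 against wt it was 7 with no dye term and 2 with individual arrays only (Fdft1 higher, Fasn lower). It was 9 with all 10 arrays in one fit and no replicate block, and 8 in that fit with the replicate block. In the same order 5.99%, 1.39%, 11.6% and 10.5% of all genes were called. The fits of all 10 arrays count the pools as further replicates, although the pools hold the same cultures. Against siScramble the count of members was 2 with no dye term (Mvd lower, Srebf2 higher), beside 5.1% of genes. It was 1 with individual arrays only (Fdft1 higher), beside 3.63%, and the block changed no call of a member there. In siScramble against wt it was 3 with the difference of the pools added (Cyp51, Msmo1 and Hsd17b7 lower), beside 0.908%. The causes were not tested. Over all probes the calls against wt were 9, but 844 with no dye term, 211 with individual arrays only, 1656 without and 1495 with the block in the joint fit, and 0 with processed signals or a robust intensity trend. Against siScramble they were 22, but 689, 527, 97, 64, 0 and 0 in the same order, and 66 with a slide term. In siScramble against wt they were 21, but 132 with the pools, and 0 with processed signals, the trend or the joint fit without a block. Leaving out each culture in turn called 0 members in all 3 comparisons, with medians from −0.22 to −0.18, −0.07 to −0.05 and −0.18 to −0.12, and with 0 to 65, 12 to 35 and 0 to 17 probes called. The lowest count against wt came without culture 4 and the highest, 65, without culture 3. Uncalled members near 0 changed sign 5, 7 and 19 times, the largest of their values being 0.114 in size. The probe of Scd was too dim to test.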
